A study of Mus musculus with 2 samples.

Results

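The heat shock chaperones examined here were 10 genes taken by name, Hspa1a, Hspa1b, Hspa5, Hspa8, Dnajb1, Hsph1, Hsp90aa1, Hsp90ab1, Hspd1 and Hspe1, out of 13528 genes in the filtered count table of hepatic mononuclear cells. All 10 were detected in both capture libraries, and each was followed across the 14 deposited cell type names, 30 clusters and 2 libraries. The animals compared were WT mice and TG mice with the transgene dnTGFβRII, whose product, driven in T cells by the mouse CD4 promoter, blocks signalling through the TGF-β receptor, a strain studied for liver disease like primary biliary cholangitis. The labels give the strain as C57BL/6 and the age as 10 weeks in both libraries, while the methods state a slightly younger age. Each library was 1 capture of CD45+ liver cells from a pair of strains, TG together with IFN-γ ARE-Del-/- in the first pool and WT together with P40-/-IL-2Ra-/- in the second. The filtered table names 4647 of 10026 cells of the first pool as TG and 7282 of 24111 cells of the second as WT, and the genotype of the remaining cells is not given in the tables used here. Genotype and capture therefore cannot be told apart, no test was possible, and every interval below is a 95% interval for counting error only.

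Heat shock proteins bind unfolded or partly folded proteins and release them again, usually at the cost of ATP. Some are made in every cell at all times, and others are induced when heat shock factor 1 binds heat shock elements in their promoters, or, in the endoplasmic reticulum (ER), when the unfolded protein response is triggered. In lymphocytes, activation and antibody secretion raise the demand for folding, and tissue dissociation is itself a known inducer of stress transcripts.

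Levels are given as CPM, the UMIs (counted molecules) of a gene per 1000000 UMIs summed over a set of cells, and ratios as log2 of CPM in one set over another. The named cells held 18498477 UMIs in TG and 22216379 in WT, with a median of 3298 UMIs per cell in TG and 2653.5 in WT. The deposited mitochondrial share had a median of 5.14% in TG and 6.03% in WT. The libraries shared 267 cell indices, 36 of them between named cells. Cells that carried B and T cell transcripts together or were marked as possible doublets made up 5.79% of TG and 5.03% of WT cells and were kept.

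Some deposited names went against their markers, so cells are called below by their given name and cluster. Cells named macrophages were clusters 15, 22 and 27. Cluster 15 held the dendritic cell gene Cd209a (144 UMIs in TG, 393 in WT) beside Ccr2 and Lyz2, and cluster 22 held the dendritic cell gene Xcr1 (76 UMIs in TG, 289 in WT). Cluster 27 alone was rich in the macrophage genes C1qa (318 UMIs) and C1qb (505 UMIs), and it had 23 WT cells and no TG cell. Among the 109 TG cells named macrophages C1qa and C1qb were listed at 0 in the filtered table, and the library file gave them 1 and 8 UMIs, while the macrophage gene Adgre1 had 25 UMIs in 17 of these cells (40.8 CPM, and 138.6 in WT). Cells named monocytes carried neutrophil genes, with S100a8 at 21386 CPM in TG and 10788 in WT, and little of the monocyte gene Ccr2 (21.7 and 40.2 CPM). They also held the monocyte gene Ly6c2 at 436 CPM in TG and 297 in WT, which CD8ab T cells held at 1626 and 775. Cells named immature B had less of the immature B cell gene Vpreb3 (17.2 CPM in TG, 44.2 in WT) than cells named mature B (141.7 and 216.8 CPM).

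Over all named cells the inducible cytosolic HSP70 genes were higher in TG, and the ER and mitochondrial members Hspa5 and Hspe1 were lower. Hspa1b stood at 63.8 CPM in TG and 27.4 in WT, a log2 ratio of 1.22 (1.08 to 1.36), and Hspa5 at 986 and 1403 CPM, a log2 ratio of -0.51 (-0.54 to -0.48). Past 2-fold higher was 1 member (Hspa1b) and 0 were past 2-fold lower, where 6.64% of the 13498 genes with at least 10 UMIs were past 2-fold higher and 7.15% past 2-fold lower. These shares include genes that the filtered table sets to 0 in a genotype. The median log2 ratio of the members was 0.003 against -0.01 for all genes. Intervals lay above 0 for 4 members (Hspa1a, Hspa1b, Hspa8 and Dnajb1), below 0 for 4 (Hspa5, Hsph1, Hsp90ab1 and Hspe1), and held 0 for Hsp90aa1 and Hspd1. The chaperones thus split between higher and lower, with no common direction, and 25.4% and 29.6% of all genes had intervals above and below 0.

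Hspa1a and Hspa1b encode near-identical inducible HSP70 proteins and lie side by side on the minus strand of chromosome 17 (GRCm38, Hspa1b at chr17:34956436-34959238 and Hspa1a at chr17:34969190-34972156, 9951 bases apart). Their whole transcripts share 58.8% (Hspa1a) and 62.3% (Hspa1b) of 50-base windows, and 0% in the last 500 bases, so molecules read near the 3′ end can be told apart and others may not. Both genes are therefore given singly and as a sum. Their RefSeq promoter windows, from 250 bases before to 50 bases after the start, are shown because both genes were higher in TG, and they differ at 4 of 300 positions. Capitals mark a double heat shock element (GAANNTTC or TTCNNGAA, searched on both strands), which begins 104 bases before the start in both and is found in 15.1% of all 32851 windows.
Hspa1a promoter window, GRCm38.p6 chr17:34972107-34972406, minus strand: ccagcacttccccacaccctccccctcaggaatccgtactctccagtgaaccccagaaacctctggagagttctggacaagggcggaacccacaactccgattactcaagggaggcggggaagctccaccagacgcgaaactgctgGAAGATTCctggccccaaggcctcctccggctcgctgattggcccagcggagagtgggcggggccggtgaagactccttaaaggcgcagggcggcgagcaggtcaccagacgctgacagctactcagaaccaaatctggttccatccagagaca
Hspa1b promoter window, GRCm38.p6 chr17:34959189-34959488, minus strand: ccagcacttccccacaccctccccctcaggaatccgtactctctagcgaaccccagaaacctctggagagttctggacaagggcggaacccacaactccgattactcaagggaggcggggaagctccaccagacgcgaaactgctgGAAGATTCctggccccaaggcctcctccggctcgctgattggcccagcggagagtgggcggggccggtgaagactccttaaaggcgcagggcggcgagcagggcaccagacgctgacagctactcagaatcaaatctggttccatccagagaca
No triple element (GAANNTTCNNGAA or TTCNNGAANNTTC, which contains the double one, 0.603% of windows) is present in either window.

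Hspa1a had 649 UMIs in TG and 549 in WT, or 35.1 and 24.7 CPM, a log2 ratio of 0.51 (0.34 to 0.67). The sum of both genes was 98.9 CPM in TG and 52.1 in WT, a log2 ratio of 0.92 (0.82 to 1.03). Over all named cells both genes were thus higher in the TG library, Hspa1b by more than Hspa1a. The sum was 1.13 without the cells named macrophages (chosen after seeing the data), 1.13 with every cell thinned to 1000 UMIs, and 1.04 as a mean over 9 cell types. In the same order Hspa1a stood at 0.85, 0.80 and 0.78, and Hspa1b at 1.29, 1.36 and 1.24. At least 1 UMI of either gene was found in 878 of 4647 TG cells (18.9%) and in 674 of 7282 WT cells (9.26%), a difference of 9.64 percentage points (8.34 to 10.96). TG cells were deeper, and after thinning the shares were 7.53% and 3.95%. The summed level of 21 immediate early genes, which rise with cell handling, was 14716 CPM in TG and 16495 in WT, and 17 of the 21 had intervals below 0, against 29.6% of all genes. By name the sum was lower in TG in CD4 T, CD8aa T, CD8ab T, NKT, NK, macrophages and monocytes. It was higher in TG in mature B (20665 and 18978 CPM) and near equal in immature B (15318 and 15331 CPM). The part of handling, depth and capture in the Hspa1 difference was not tested. No cell type here is known to lack these genes, so free RNA could not be measured from them.

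Across the 9 cell types with at least 50 cells in each library, 90 pairs of member and cell type were compared. Past 2-fold higher in TG were 9 pairs, 6 of them Hspa1b and 3 Hspa1a, and 0 were past 2-fold lower, where 5.92% and 5.19% of the pairs of all genes were. Intervals above 0 in a type and below 0 in another were found for 5 members (Hspa8, Hsph1, Hsp90aa1, Hsp90ab1 and Hspd1), and for 18.99% of the 5981 genes with at least 10 UMIs in all 9. This share was not matched to the members by count, on which the width of an interval depends. Hspa1b read 79.3 CPM in TG and 27.7 in WT among CD4 T cells, 81.5 and 38.2 among CD8aa T cells, 42.1 and 21.2 among CD8ab T cells, and 69.1 and 20.9 among NKT cells. It read 40.7 and 21.2 CPM among NK cells, 79.8 and 29.8 among cells named mature B, and 103.1 and 18.7 among cells named immature B, the widest gap (log2 ratio 2.46, 1.76 to 3.24). In cells named macrophages it was 174.8 and 70.7 CPM, and in cells named monocytes 31.8 and 38.3. TG was higher in 8 of 9 types with all 8 intervals above 0, and cells named monocytes stood at -0.27 (-1.25 to 0.71). Hspa1a, given as CPM in TG and WT, read 20.1 and 10.8 among CD4 T cells, 20.4 and 9.09 among CD8aa T cells, 23.4 and 12.4 among CD8ab T cells, 30.02 and 11.8 among NKT cells, and 13.6 and 8.10 among NK cells. Under the remaining names it read 49.1 and 24.8 in mature B, 63.0 and 30.5 in immature B, 167 and 140.0 in macrophages and 43.5 and 53.6 in monocytes. It was also higher in 8 of 9 types, from 0.25 to 1.35, with 4 intervals above 0 (CD8ab T, NKT, mature B and immature B). By clusters with at least 50 cells in each library, Hspa1b was higher in TG in 13 of 14 and Hspa5 lower in 14 of 14.

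**Figure D1:**
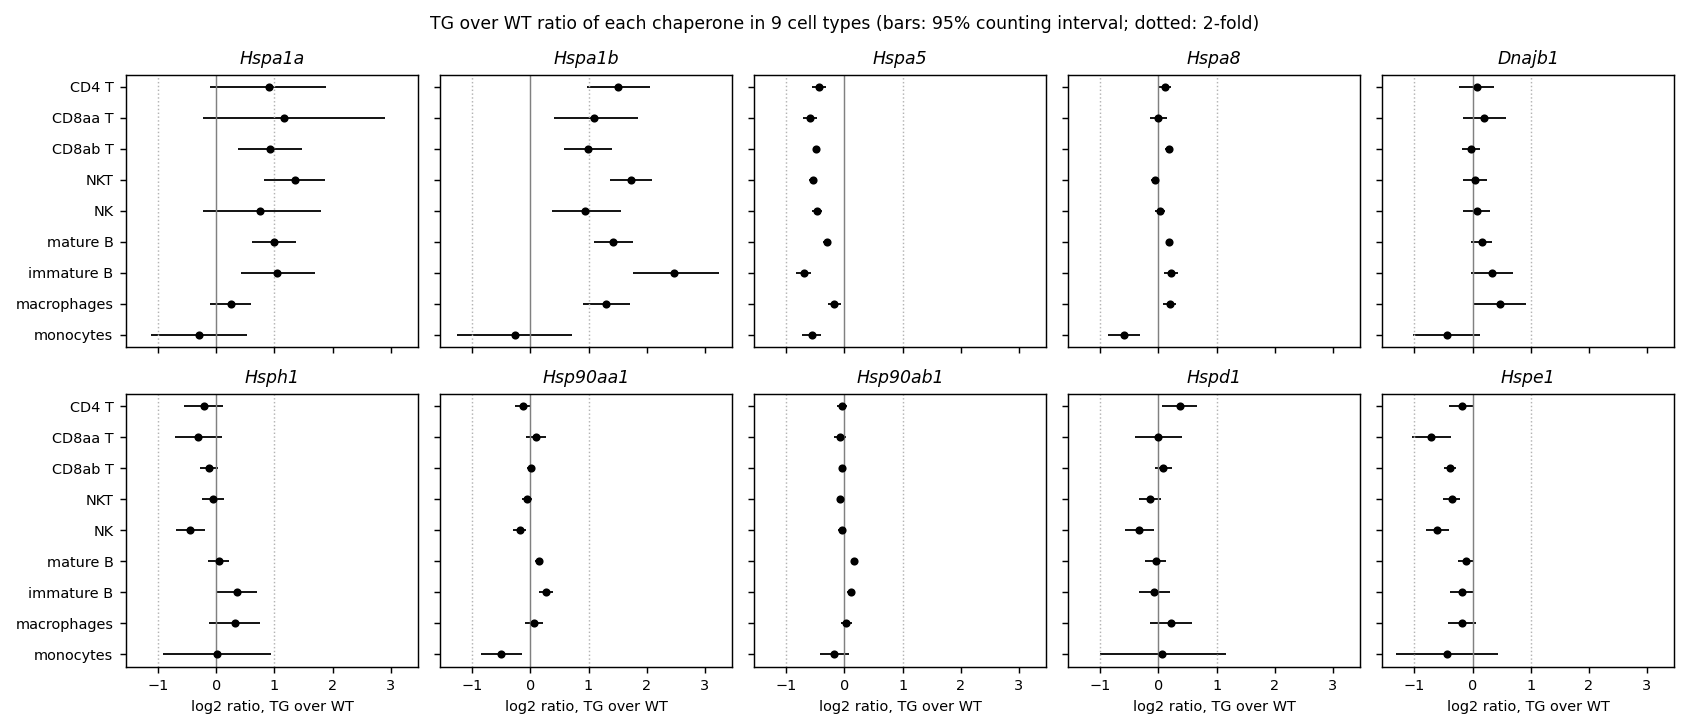
TG over WT log2 ratio (x axis) of each of the 10 chaperones in 9 cell types (y axis, deposited names). Points are ratios of summed counts, bars are 95% counting intervals, and dotted lines mark 2-fold. Hspa1b lies right of 0 in 8 of 9 types, and Hspa5 and Hspe1 lie left of 0 in 9 of 9.

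Cells named macrophages had the highest Hspa1 level in both libraries (341 CPM in TG and 211 in WT for the sum), and 52.3% of them in TG and 39.5% in WT held a UMI. Their 3 clusters differed. In cluster 15 the sum was 283 CPM in TG and 265 in WT, a log2 ratio of 0.09 (-0.25 to 0.43). In cluster 22, with 20 TG and 80 WT cells, it was 495 and 182 CPM, a log2 ratio of 1.44 (1.01 to 1.87), and cluster 27 stood at 77.2 CPM in WT. The interval thus lay above 0 in cluster 22, which had 20 TG cells, and held 0 in cluster 15. Cluster 22 also turned the direction of Hspa5, which read 2527 CPM in TG and 2090 in WT there (log2 ratio 0.27, 0.11 to 0.43) against 1110 and 1405 in cluster 15 (-0.34, -0.50 to -0.18). A single TG cell held 76 of the 429 Hspa5 UMIs of cluster 22, and the median cell read 1887 CPM in TG and 1904 in WT. Without the highest cell of each library (chosen after seeing the data) the Hspa5 ratio was 0.16 (-0.02 to 0.33), so its interval held 0, and that of the Hspa1 sum was 1.33 (0.86 to 1.80). In cluster 22 the intervals of 8 of 10 members lay above 0, all but Dnajb1 and Hspe1, where those of 6.51% of 7094 genes did. The same TG cell was highest for Hspa5 and the Hspa1 sum, and without it 6 of 10 lay above 0, Hspa1a and Hspa5 no longer, against 5.93% of 7053 genes. Whether an interval clears 0 depends on the UMIs of a gene. These shares of all genes were not matched to the members by count, so the 2 cannot be compared as like with like.

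**Figure D2:**
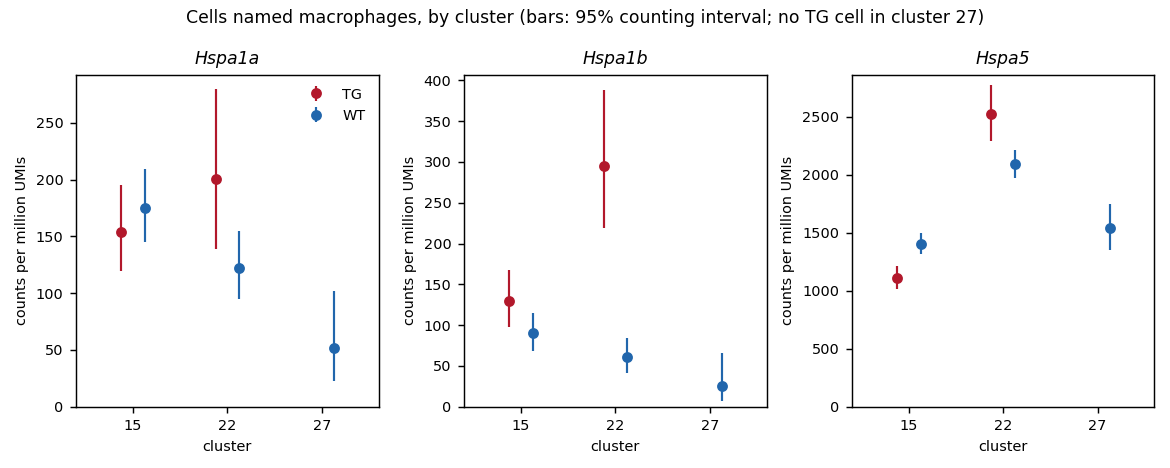
Level (y axis, CPM) of Hspa1a, Hspa1b and Hspa5 in the 3 clusters of cells named macrophages (x axis), TG in red and WT in blue, with 95% counting intervals. In cluster 22 TG lies above WT in all 3 panels (for Hspa5 with an interval that holds 0 without the highest cell of each library), in cluster 15 Hspa5 lies below, and cluster 27 has 23 WT cells and no TG cell.

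The Hspa1a share of all Hspa1 UMIs also differed between cell types. It was 35.5% (33.3 to 37.7) of 1829 UMIs in TG and 47.4% (44.5 to 50.3) of 1158 in WT. T and NK cells stood at 29.1% (26.1 to 32.2) in TG and 33.7% (29.5 to 38.1) in WT. In cells named macrophages it was 48.8% (41.8 to 55.8) in TG and 66.4% (60.7 to 71.8) in WT. Hspa1b was the larger part in T and NK cells of both libraries, and Hspa1a had a larger share in cells named macrophages. It was also larger in cells named monocytes, at 57.8% (42.2 to 72.3) in TG and 58.3% (43.2 to 72.4) in WT. Cells named immature B stood at 37.9% (31.2 to 45.0) in TG and 62.0% (47.2 to 75.3) in WT. Cells with at least 5 Hspa1 UMIs numbered 77 in TG (1.66%) and 37 in WT (0.508%), and they held 34.0% and 23.7% of all Hspa1 UMIs. Of these, 16 TG and 17 WT cells were named macrophages, and the highest single cell, a TG CD8ab T cell, had 31 UMIs. Against cells of the same types without an Hspa1 UMI, the log2 ratios of the other 8 members were all above 0, from 0.13 (Dnajb1) to 1.07 (Hsph1) in TG and from 0.13 (Hspa5) to 2.11 (Hsph1) in WT. The high cells were also deeper, with medians of 4466 and 4743 UMIs per cell against 3216 and 2627, and no interval was set on cells chosen by their counts. The immediate early sum stood at -0.21 in TG and 0.18 in WT. The share of all genes above 0 was not counted here, so the 8 members cannot be set against it.

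Hspa5 (BiP) is the HSP70 of the ER and the main binder of unfolded proteins there. Its promoter window is shown because Hspa5 was lower in TG under all 9 names with at least 50 cells in each library. Capitals mark an ER stress element (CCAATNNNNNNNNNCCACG, both strands), which begins 65 bases before the start and is found in 0.119% of windows.
Hspa5 promoter window, GRCm38.p6 chr2:34771840-34772139, plus strand: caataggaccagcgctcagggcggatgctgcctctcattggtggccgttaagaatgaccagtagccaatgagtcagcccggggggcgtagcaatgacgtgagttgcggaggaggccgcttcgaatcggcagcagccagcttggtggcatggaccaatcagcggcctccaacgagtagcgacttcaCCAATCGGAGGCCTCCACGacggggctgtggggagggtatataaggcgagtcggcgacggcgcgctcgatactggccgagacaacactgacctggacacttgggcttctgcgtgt
Hspa5 was lower in TG in 9 of 9 cell types with 9 of 9 intervals below 0, and 4.01% of the 5981 genes that could be followed in all 9 were lower in each. It read 857 CPM in TG and 1155 in WT among CD4 T cells, 997 and 1504 among CD8aa T cells, 786 and 1097 among CD8ab T cells, and 1111 and 1623 among NKT cells. It read 972 and 1344 CPM among NK cells, 988 and 1215 among cells named mature B, and 759 and 1234 among cells named immature B. Cells named macrophages read 1503 and 1696 CPM and cells named monocytes 888 and 1313. The ratio ran from -0.70 (-0.83 to -0.58) in cells named immature B to -0.17 (-0.29 to -0.06) in cells named macrophages. Cells that read higher in TG were those of cluster 22, given above with their dependence on the highest cells, and the 32 TG and 14 WT cells of cluster 26, described further on.

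The other ER genes lay on both sides of 0. Of 19 ER chaperones and unfolded protein response genes 5 had intervals above 0 and 9 below, against 25.4% and 29.6% of all genes, with a median log2 ratio of -0.10. Over all named cells Dnajb9, a BiP co-chaperone, read 133 CPM in TG and 177 in WT (-0.41, -0.49 to -0.34). Ddit3, a transcription factor of the stress response, read 42.9 and 55.5 (-0.37, -0.50 to -0.24). Creld2, an ER resident induced by stress, read 57.4 and 46.3 CPM (0.31, 0.18 to 0.43), and the BiP partner Sdf2l1 70.1 and 62.7 (0.16, 0.05 to 0.27).

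Hspa8 is the constitutive cytosolic HSP70 (HSC70). It read 1170 CPM in TG and 1140 in WT over all named cells (log2 ratio 0.04, 0.01 to 0.06). Its level in TG and WT was 1207 and 1117 among CD4 T cells, 994 and 998 among CD8aa T cells, 1401 and 1242 among CD8ab T cells, 1180 and 1224 among NKT cells, and 1088 and 1069 among NK cells, in CPM. It was 1112 and 976 in mature B, 1197 and 1030 in immature B, 1722 and 1508 in macrophages and 328 and 496 in monocytes. Between cell types within a library the spread was wider, from 328 CPM in cells named monocytes to 1722 in cells named macrophages in TG, and from 496 to 1508 in WT. TG was higher with an interval above 0 in 5 types, CD4 T (0.11), CD8ab T (0.17), mature B (0.19), immature B (0.22) and macrophages (0.19), and lower in cells named monocytes (-0.60, -0.87 to -0.32). Among cells named macrophages cluster 15 stood at 0.01 (-0.13 to 0.15), and cluster 22, with 20 TG cells, at 0.39 (0.21 to 0.57).

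Dnajb1 (HSP40) stimulates the ATPase of HSP70, and Hsph1 (HSP110) exchanges its nucleotide. Dnajb1 read 155 CPM in TG and 140 in WT (0.14, 0.07 to 0.21), and 8 of 9 intervals within cell types held 0, all but cells named macrophages (0.46, 0.01 to 0.92). By type the Dnajb1 level was 159.8 and 152 among CD4 T cells, 182 and 158 among CD8aa T cells, 159 and 162 among CD8ab T cells, 137 and 133 among NKT cells, and 176 and 168 among NK cells, in CPM. The other names gave 160.1 and 144 in mature B, 131 and 104 in immature B, 109 and 79.3 in macrophages and 80.2 and 109 in monocytes. Among the 9 types its highest level in TG was 182 CPM in CD8aa T cells and its lowest 80.2 in cells named monocytes. The 45 TG cells named basophils read higher still, at 521 CPM, against 208 in the 16 WT cells, with 39.0% and 66.7% of those UMIs in the 3 highest cells. Basophils also had the highest immediate early sum, 66019 CPM in TG and 81041 in WT, and its part in their Dnajb1 level was not tested. Hsph1 read 138 CPM in TG and 148 in WT (-0.11, -0.18 to -0.03), and CD8ab T cells were highest among the 9 types in both libraries. Its level was 121 and 140.2 among CD4 T cells, 116 and 144 among CD8aa T cells, 171 and 187 among CD8ab T cells, 164 and 169.9 among NKT cells, and 115 and 157 among NK cells, in CPM. It was 139 and 136 in mature B, 152 and 119 in immature B, 113 and 90.02 in macrophages and 38.4 and 38.3 in monocytes. It was lower in TG among NK cells (-0.45, -0.70 to -0.19) and higher among cells named immature B (0.36, 0.02 to 0.70). Dnajb1 has neither element in its RefSeq windows, while Hsph1 has a triple element 36 bases after the start.

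Hsp90aa1 and Hsp90ab1 encode the inducible and the constitutive cytosolic HSP90, which mature kinases and receptors. Hsp90aa1 read 817 CPM in TG and 811 in WT (0.01, -0.02 to 0.04), and Hsp90ab1 2068 and 2180 (-0.08, -0.10 to -0.06). For Hsp90aa1 the TG and WT levels were 715 and 779 among CD4 T cells, 699.9 and 655 among CD8aa T cells, 959 and 957 among CD8ab T cells, 747 and 775 among NKT cells, and 655 and 743 among NK cells, in CPM. They were 953 and 858 in mature B, 1028 and 854 in immature B, 843 and 809 in macrophages and 201 and 283 in monocytes. Among the lymphocyte names of these 9 types Hsp90aa1 thus ran from 655 to 1028 CPM in TG and from 655 to 957 in WT. It was far lower in cells named monocytes. For Hsp90ab1 the TG and WT levels were 2150 and 2210 among CD4 T cells, 1804 and 1904 among CD8aa T cells, 2301 and 2382 among CD8ab T cells, 2226 and 2357 among NKT cells, and 1753 and 1801 among NK cells, in CPM. They were 2198 and 1971 in mature B, 2770 and 2562 in immature B, 2091 and 2047 in macrophages and 469.7 and 530.0 in monocytes. Both were higher in TG in the B cell names, Hsp90aa1 by 0.27 (0.14 to 0.39) in immature B and 0.15 (0.08 to 0.22) in mature B, and Hsp90ab1 by 0.11 (0.04 to 0.19) and 0.16 (0.11 to 0.20). Hsp90ab1 was lower in TG in CD8ab T cells (-0.05, -0.09 to -0.01) and NKT cells (-0.08, -0.13 to -0.03), and Hsp90aa1 in NK cells (-0.18, -0.29 to -0.07) and cells named monocytes (-0.50, -0.86 to -0.14). Among the 9 types cells named immature B were highest for Hsp90ab1 and cells named monocytes lowest, while cells named pDC, 46 in TG and 219 in WT, read 2861 and 2777 CPM.

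Hspd1 (HSP60) and its lid Hspe1 (HSP10) form the mitochondrial chaperonin and are transcribed away from each other on chromosome 1 (GRCm38, Hspd1 at chr1:55077835-55088243 and Hspe1 at chr1:55088132-55091307), where their gene models share 112 bases at their starts. The Hspe1 window is shown because it carries the shared start, and it overlaps the second of the Hspd1 windows by 285 bases. Capitals mark 2 overlapping triple heat shock elements, the first beginning 89 bases before the Hspe1 start.
Hspe1 promoter window, GRCm38.p6 chr1:55087898-55088197, plus strand: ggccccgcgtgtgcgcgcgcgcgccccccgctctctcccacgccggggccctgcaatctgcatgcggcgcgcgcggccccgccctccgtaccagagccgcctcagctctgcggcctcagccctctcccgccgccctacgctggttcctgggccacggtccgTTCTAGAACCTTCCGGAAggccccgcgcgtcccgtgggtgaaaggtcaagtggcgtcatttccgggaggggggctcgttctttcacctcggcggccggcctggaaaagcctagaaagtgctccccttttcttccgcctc
The pair differed in the TG comparison. Hspd1 read 158.9 CPM in TG and 159.5 in WT (-0.01, -0.08 to 0.07), and among the 9 types it had 1 interval above 0 (CD4 T cells, 0.37, 0.06 to 0.66) and 1 below (NK cells, -0.33, -0.57 to -0.08). The 17 TG and 192 WT gamma delta T cells stood at 0.90 (0.05 to 1.67) for Hspd1. By type Hspd1 stood at 174 and 135 among CD4 T cells, 134 and 135 among CD8aa T cells, 203 and 192 among CD8ab T cells, 160.3 and 177 among NKT cells, and 131 and 164 among NK cells, in CPM. The remaining names stood at 138 and 143 in mature B, 210.3 and 221 in immature B, 162 and 139 in macrophages and 30.1 and 28.7 in monocytes. Hspe1 read 254 and 329 CPM (-0.37, -0.43 to -0.32) and was lower in TG in 9 of 9 types, from -0.71 (-1.04 to -0.37) in CD8aa T cells to -0.11 (-0.24 to 0.02) in cells named mature B, with 4 intervals below 0 (CD8aa T, CD8ab T, NKT and NK cells). By type Hspe1 stood at 288 and 327 among CD4 T cells, 138 and 225 among CD8aa T cells, 326 and 426 among CD8ab T cells, 255 and 328 among NKT cells, and 171 and 260.3 among NK cells, in CPM. The remaining names stood at 271 and 293 in mature B, 331 and 375 in immature B, 317 and 360.1 in macrophages and 36.8 and 49.7 in monocytes. TG was thus lower for Hspe1 in these 9 types, with 5 intervals that held 0, while Hspd1 had no common direction. Hspe1 read 477 CPM in TG and 461 in WT in cluster 22 (0.05, -0.33 to 0.42), and its ratio was 0.39 in gamma delta T cells and 0.14 in basophils, names with under 50 cells in a library, with intervals that held 0. Of the other 8 mitochondrial chaperones 1 had an interval above 0 and 2 below. Of 7 measured subunits of TRiC, the cytosolic chaperonin ring, 0 lay above and 3 below. Of 31 measured genes that are cytosolic co-chaperones or linked to heat shock factor 1, 7 lay above and 11 below. The background for all these lists was 25.4% of all genes above 0 and 29.6% below.

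**Figure D3:**
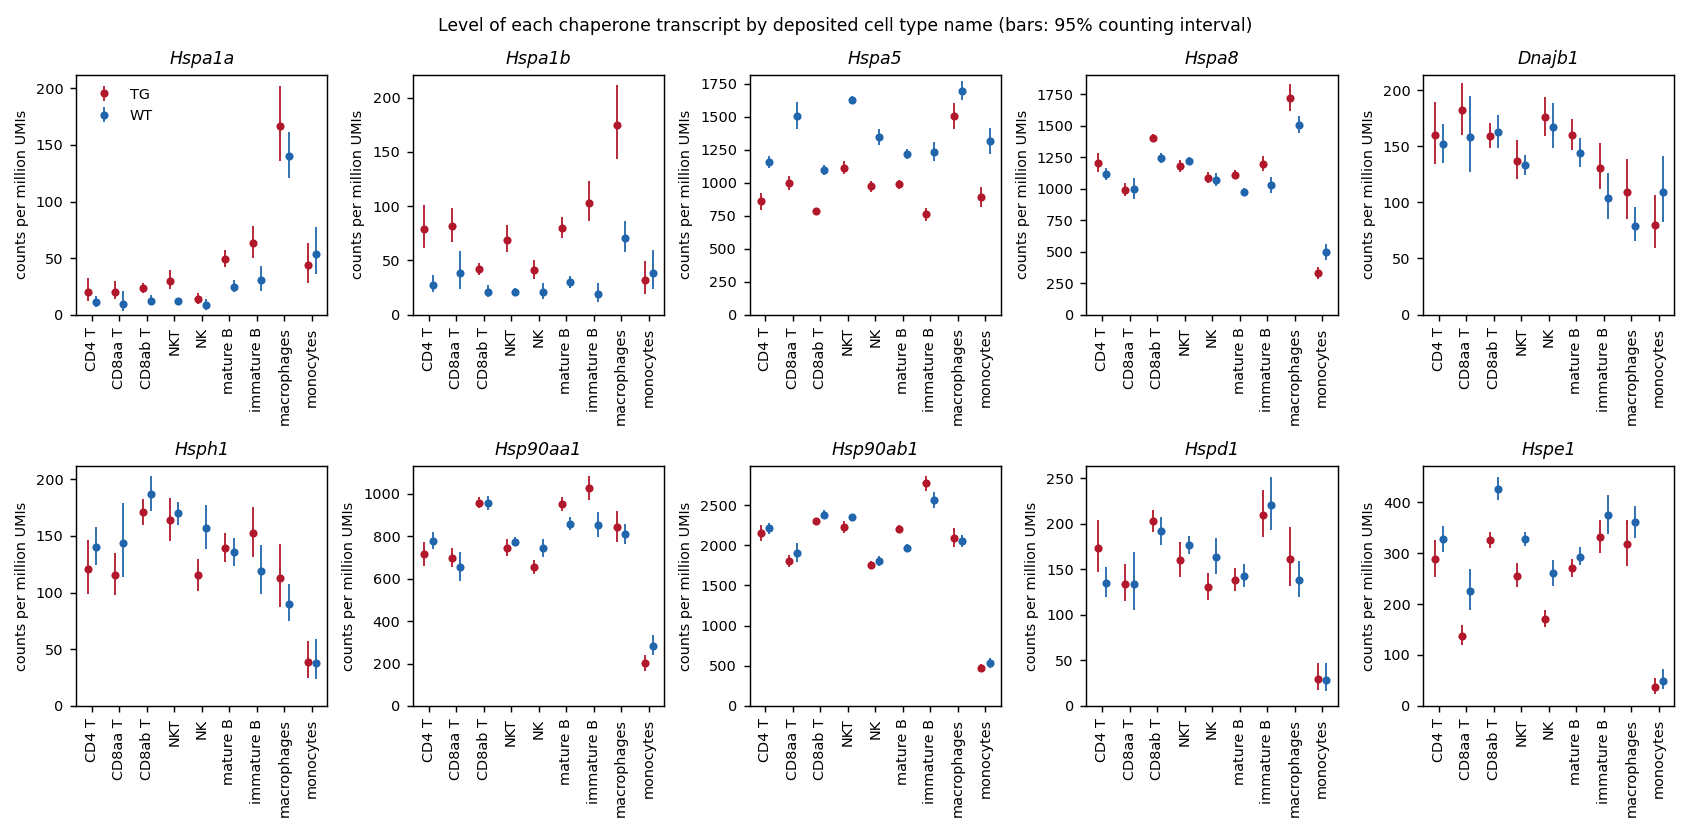
Level (y axis, CPM) of each chaperone in 9 cell types (x axis, deposited names), TG in red and WT in blue, with 95% counting intervals. Cells named monocytes are lowest for Hspa8, Hsph1, both HSP90 genes, Hspd1 and Hspe1 in both libraries, and cells named macrophages are highest for Hspa1a, Hspa1b, Hspa5 and Hspa8.

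Over the 9 types the levels of several members, constitutive and inducible, went together, in large part through cells named monocytes. Pearson's r of log2(CPM + 10) between Hsp90ab1 and Hspd1 was 0.986 in TG and 0.975 in WT, and 0.849 and 0.713 without cells named monocytes. Between Hsp90ab1 and Hspa8 it was 0.934 and 0.891, and 0.2999 and 0.192 without them. The inducible Hsp90aa1 stood at 0.983 and 0.969 with Hsp90ab1, and at 0.827 and 0.587 without cells named monocytes. Dnajb1 stood lower, at 0.681 and 0.201 with Hsp90ab1. Hspa5 stood apart from Hsp90ab1, at 0.04 and -0.02. Among 7942 other genes the patterns most like Hsp90ab1 were Cct2 (0.987 and 0.989, and 0.777 and 0.846 without cells named monocytes), Eif3i and Wdr43. Those most like Hspa8 were Eif4a1 (0.986 and 0.983), Lsm12 and Hsd17b12, and those most like Hspd1 were Snu13, Suclg1 and G3bp1. The patterns most like the Hspa1 sum were those of Naaa (0.877 and 0.880), Hexa and Lamp1. The 9 points of each r share 1 library and are a description.

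Within the cells named NKT, cluster 19 (20 TG and 127 WT cells) held more of most chaperones than the large cluster 0. Clusters were made from these transcripts too, so the values describe cluster 19 and test nothing. Hspd1 read 554 CPM in cluster 19 and 135 in cluster 0 of TG, and 566 and 145 in WT, log2 ratios of 2.03 (1.60 to 2.45) and 1.96 (1.76 to 2.16). Hsp90ab1 read 5295 and 2013 CPM in TG and 5212 and 2104 in WT, and Hspe1 765 and 226 in TG and 708 and 295 in WT. In each library 7 of 10 members were past 2-fold higher, where 10.4% of genes in TG and 7.28% in WT were, and the members' medians were 1.18 and 1.19 (all genes -0.06 and -0.10). Dnajb1 was among those that were not, at 0.06 and 0.23 with intervals that held 0. The 2167 genes with at least 10 UMIs in cluster 19 of each library were ranked by the smaller of the 2 ratios. Hspd1 had rank 9 among them, with Tnfrsf9, Irf4 and Cdca7 at the top. This filter favours genes that are high in cluster 19, so the rank is a description. All 7 measured TRiC subunits had intervals above 0 in both libraries, where 7.74% of all genes in TG and 12.01% in WT had, shares not matched by count. Of the 12 cell division genes 9 could be compared in TG, with 3 intervals above 0 and 0 below, and 10 in WT, with 4 above and 2 below, and Mki67 had 2 and 0 UMIs. The immediate early sum was lower in cluster 19, 10801 against 13028 CPM in TG and 10848 against 15326 in WT, and the cells of cluster 19 were deeper, with medians of 5007.5 UMIs against 3833 in TG and 3502 against 2838.5 in WT. The part of depth was not tested. Without each member's 3 highest cells (chosen after seeing the data) the members' medians were 0.66 in TG and 1.00 in WT. Leaving out such cells lowers a small cluster by construction.

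Cluster 29 of the cells named mature B (11 TG and 10 WT cells) showed a like set over cluster 1. Hspd1 read 496 CPM against 134 in TG and 688 against 130 in WT, ratios of 1.89 (1.18 to 2.52) and 2.40 (1.71 to 3.02). Past 2-fold higher were 4 members in TG and 7 in WT, against 17.0% and 17.6% of genes. The members' medians were 0.87 and 1.25, where those of all genes were 0.29 and 0.39. The 7 in WT include Hspa1b on 2 UMIs, at 1.01 (-2.06 to 2.91). Hspa1a and Hspa1b were past 2-fold lower in TG on 1 UMI each, with ratios of -1.01 (-6.32 to 1.49) and -1.75 (-7.06 to 0.74). Nop58 and Nolc1, which act in the nucleolus, ranked highest among the 432 genes with at least 10 UMIs in cluster 29 of each library. This filter favours genes that are high in cluster 29. Of the cell division genes 0 had intervals above or below 0 in either library. Its cells were deeper than those of cluster 1, with medians of 3925 UMIs against 2898 in TG and 2604.5 against 1978 in WT, and their immediate early sum was lower, 16040 against 21130 CPM and 11823 against 19604. The part of either was not tested. With TMM factors in the totals (chosen after seeing the data, as is the next) the medians were 0.51 (-0.02 to 0.99) and 0.79 (0.49 to 1.08). The range beside a median is the mean of the bounds of its 2 middle members, not an interval of the median. The TG range held 0. Leaving out each member's 3 highest cells, which lowers a small cluster by construction, gave 0.16 and 0.35 with ranges that held 0.

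Over the 10 members dividing CD8ab T cells did not share this pattern. Cluster 7 was marked by cell division genes (12 of 12 past 2-fold higher than the other CD8ab T cells in both libraries), and the members' medians were 0.07 in TG and 0.004 in WT. Its cells had medians of 7454 UMIs in TG and 6613.5 in WT, and their immediate early sum was 4796 CPM against 12007 in TG and 5917 against 12344 in WT, with 18 and 20 of 21 intervals below 0. The part of depth and of these genes was not tested. Past 2-fold either way were 0 members in TG and 1 in WT (Hspa1a, at -1.23 with an interval of -2.78 to 0.04, on 6 UMIs), where 22.7% and 25.2% of genes were. Hsp90aa1 read 1204 CPM in cluster 7 and 753 in the rest in TG, and 1209 and 845 in WT. Hsp90aa1, Hspa8 and Hspd1 had intervals above 0 in both libraries and Hspe1 and Hsph1 below 0, as had Hspa5 in TG. That is 3 of 10 above in each and 3 (TG) and 2 (WT) below, where 26.4% (TG) and 23.3% (WT) of all genes lay above 0 and 21.4% and 16.9% below. Of 7 measured TRiC subunits 5 in TG and 3 in WT had intervals above 0, with 0 below. Of the 19 ER genes 14 in each library lay above 0 and 3 below.

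**Figure D4:**
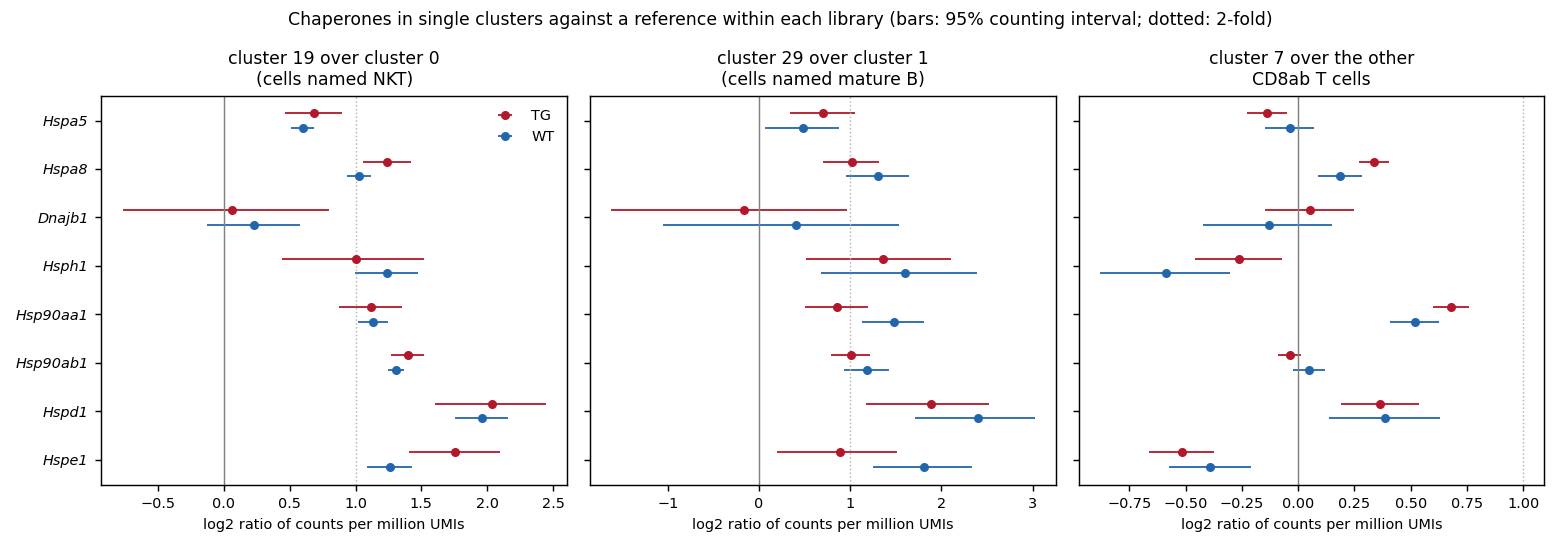
Log2 ratio (x axis) of 8 chaperones (y axis) in cluster 19 over cluster 0, cluster 29 over cluster 1, and cluster 7 over the other CD8ab T cells, within TG (red) and WT (blue), with 95% counting intervals and a dotted line at 2-fold. Hspd1 is the highest point of clusters 19 and 29 in both libraries, and no point of cluster 7 reaches 2-fold. Hspa1a and Hspa1b are left out because of their few UMIs.

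Cluster 26, of the cells named other, carried the plasma cell genes Jchain (8555 UMIs in 32 TG cells and 2751 in 14 WT cells), Xbp1, Sdc1 and Mzb1, and it separated Hspa5 from the rest. Hspa5 read 3915 CPM there in TG and 1854 in WT, against 986 and 1184 in cluster 1, ratios of 1.99 (1.89 to 2.09) and 0.65 (0.44 to 0.85), and the 3 highest cells held 37.7% and 47.1% of the Hspa5 UMIs of cluster 26. Past 2-fold lower there were 8 members in TG and 2 in WT, where 42.8% and 45.7% of all genes were, so the count lay above the background in TG and below it in WT. Hsp90aa1 read 266 CPM in cluster 26 and 953 in cluster 1 of TG, and 657 and 866 in WT. In WT Hspa8, Hsph1, Hsp90aa1 and Hsp90ab1 had intervals below 0, and Hspa1a had 0 UMIs there. Of the 19 ER genes 16 in TG and 15 in WT had intervals above 0, where 7.92% and 5.98% of all genes had, with medians of 2.80 and 2.02. The immunoglobulin gene Igkc alone read 200452 CPM in TG and 196846 in WT in cluster 26, which lowers the CPM of other genes by construction. The median log2 ratio was -0.64 and -0.37 for all genes, and -1.39 and -0.40 for the members. Cluster 26 cells had medians of 9091.5 and 8223 UMIs, against 2898 and 1978 in cluster 1. The part of depth and of Igkc was not tested.

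The cells without a deposited genotype were compared between the pools as well, as a mix of strains that cannot be told apart. T, B and myeloid classes were set from transcripts in the same way for all cells of the library files. Unnamed cells of the first pool over those of the second gave log2 ratios for the Hspa1 sum of 0.52 (0.41 to 0.63) in the T class, 0.60 (0.39 to 0.81) in the B class and 0.53 (0.24 to 0.80) in the myeloid class, where the medians of all genes were 0.15, 0.06 and 0.16. Named TG over WT cells gave 1.11 (0.93 to 1.29), 1.27 (1.02 to 1.52) and -0.40 (-0.92 to 0.11). Of 30 pairs of member and class 0 were past 2-fold either way in the unnamed cells, where 9.04% of pairs of all genes were past 2-fold higher and 6.19% lower. Hspa1 was thus higher in the first pool in lymphocytes of both kinds of cells, with smaller ratios in the unnamed ones. Each class pools several cell types, and the part of make-up was not tested.

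For Hspa5 cells named WT and cells named TG each stood apart from unnamed cells of their own pool in each class. Cells named TG read lower throughout, with log2 ratios of -0.19 (-0.23 to -0.14) in the T class and -0.13 (-0.19 to -0.06) in the B class. In the myeloid class their ratio was -0.45 (-0.66 to -0.25). In the T class cells named WT read 1418 CPM (1397 to 1440) against 992 (983 to 1002) in unnamed T class cells of the same library, while named TG and unnamed first pool cells read 897 and 1020. The T class pools types in unlike shares (cells named NKT were 9.60% of TG and 30.7% of WT named cells), its make-up in unnamed cells is not known, and the part of make-up was not tested. In the myeloid class cells named WT read 1497 CPM (1403 to 1595) against 813 (779 to 847) in unnamed ones. The ratio between the pools was -1.21 (-1.41 to -1.01) in named and 0.13 (0.001 to 0.26) in unnamed cells. By name the Hspa5 ratio was smaller, -0.17 in cells named macrophages and -0.56 in cells named monocytes. The myeloid class mixes names in shares that were not counted, and the part of its make-up was not tested. In the B class cells named WT read lower than unnamed ones, 1244 CPM against 1429 (-0.20, -0.26 to -0.14). Unnamed B class cells gave -0.39 (-0.45 to -0.32) between the pools, close to the named -0.31 (-0.38 to -0.25). In the T class the Hspa1 sum went the other way, at 36.9 CPM in cells named WT and 69.3 in the unnamed cells of that library, a ratio of -0.91 (-1.05 to -0.76). All other members but Hspa5 were also lower there with intervals below 0, from -0.74 (Hsph1) to -0.12 (Hsp90ab1). The median of all genes was 0.08, and the share of all genes below 0 was not counted. Cells named TG gave -0.32 (-0.48 to -0.17) for the sum over unnamed cells of their pool. In the B class the sum of cells named WT over unnamed ones was on the same side as Hspa5, at -0.85 (-1.12 to -0.58). In the myeloid class it was 0.12 (-0.22 to 0.44). Hspe1 was lower in the first pool in T class cells of both kinds, -0.36 (-0.44 to -0.28) in named and -0.55 (-0.61 to -0.49) in unnamed cells, and did not differ beyond counting error in unnamed B class cells (0.01, -0.12 to 0.14).

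**Figure D5:**
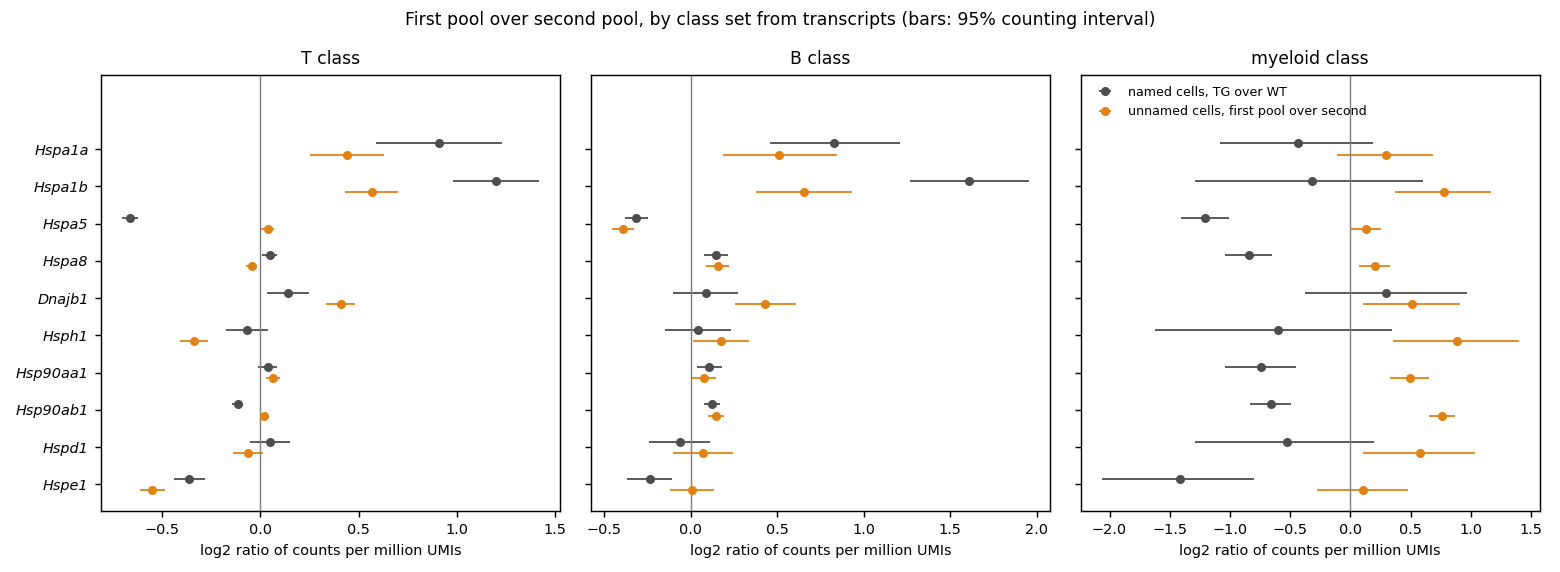
Log2 ratio (x axis) of each chaperone (y axis) between the first and second pool, for named cells (grey, TG over WT) and for cells without a deposited genotype (orange), in T, B and myeloid classes set from transcripts, with 95% counting intervals. In the T class, whose make-up differs between TG and WT, Hspa5 is at -0.66 in named and 0.04 in unnamed cells, while Hspa1a, Hspa1b and Hspe1 keep their side of 0 in both.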

How the data were processed

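CD45+ liver cells were loaded on BD Rhapsody microwells with antibody oligonucleotides. The authors aligned reads to mm10 with STAR in the BD pipeline, and the deposited library files hold UMI counts per gene and cell. A deposited filtered table holds UMI counts of named cells and sets a gene found in few cells of a genotype to 0. The filter on cells is not given in the sources used here. Cell names, clusters (canonical correlation in Seurat, by the authors) and the mitochondrial percent of each cell were taken as deposited. The antibody tables and the normalised values were not used, and 0 columns of other samples were present.

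Counts were summed per library and cell set, including mitochondrial genes, and genes needed 10 UMIs over both sets. CPM have exact Poisson, ratios exact conditional binomial, shares Clopper-Pearson and differences Newcombe 95% intervals, which cover counting error only. A range beside a median of members is the mean of the bounds of its 2 middle members, and is not an interval of the median. Shares of all genes with intervals above or below 0 were not matched by count, and genes with few UMIs have wide intervals. The interval code was tested on simulated data. Doublets were marked by joint B and T cell transcripts or Scrublet (scanpy 1.11.5). Alternatives were TMM factors (edgeR 4.0.16), totals without ribosomal and mitochondrial genes, equal weights, thinning to 1000 UMIs, and leaving out cells. Classes of unnamed cells needed 2 UMIs of CD3 or of CD79 genes, or 3 of Lyz2, and none of the other classes' genes. Promoters are from RefSeq, GRCm38.p6, and 7 of 10 members had one. All 10 members are named, with, from each further list, up to 2 genes at either end with at least 100 UMIs. For 4 of 5 targets the 3 likest genes by the lower r of both libraries are named, and those for Hspa5 are not reported here. The members and lists were chosen with earlier results of these data known.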

Additional observations from a re-analysis of the deposited data

Results flagged for a closer look

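Within 5 members the TG over WT log2 ratio lay on opposite sides of 0 in different cell types, with both counting intervals clear of 0, as was found for 18.99% of the 5981 genes with at least 10 UMIs in all 9 types. That share was not matched to the members by count. The difference between types was not tested, since there was 1 library per genotype. Hspa8 was at 0.22 in cells named immature B and -0.60 in cells named monocytes. Hsph1 was at 0.36 in cells named immature B and -0.45 in NK cells. Hsp90aa1 was at 0.27 in cells named immature B and -0.50 in cells named monocytes. Hsp90ab1 was at 0.16 in cells named mature B and -0.082 in NKT cells. Hspd1 was at 0.37 in CD4 T cells and -0.33 in NK cells.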

How the results depend on the processing

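Of 74 alternative values of the main results, 57 stayed within the range set for the main value and 17 moved outside it. That range was the counting interval for ratios and shares. For medians it was the mean bounds of the 2 middle members, and for the number of pairs a set factor. The sign changed in 16, all of medians near 0, those over all named cells (0.003, at lowest -0.027) and in cluster 7 (0.07 in TG, at lowest -0.15, and 0.004 in WT). The Hspa1 sum (0.92) was 1.03 with equal weight per cell, 1.13 when thinned, 1.13 without cells named macrophages and 1.04 as a mean over types. Hsp90ab1 (-0.08) gave -0.10 without ribosomal and mitochondrial genes in the totals and -0.018 as a mean over types. The cluster 7 median in WT gave -0.18 without those genes. The cluster 19 median gave 0.98 thinned in WT, and 0.66 (TG) and 1.00 (WT) without each member's 3 top cells. The cluster 29 median without them gave 0.16 (-0.71 to 0.90) in TG and 0.35 (-1.11 to 1.42) in WT, with ranges that held 0. Leaving out top cells lowers a small cluster by construction. With TMM factors cluster 29 gave 0.79 in WT and 0.51 (-0.018 to 0.99) in TG, and 0.66 (-2.38 to 2.26) thinned in TG. The share difference of 9.64 points was 3.58 thinned, 4.66 at 2 or more UMIs and 11.1 as a mean over types. Pairs past 2-fold numbered 16 of 139 by clusters (11.5%, against 12.6% of pairs of all genes) and 9 of 90 by type. Hspa5 was lower in TG in each of the 9 types under these alternatives, and Hspe1 in 8 of 9 types when thinned and without possible doublets. Alternatives for clusters 19, 22 and 29 and without cells named macrophages were chosen after seeing the data. No paired analysis was possible because each genotype had 1 library, and no replicate could be left out. Depth limits Hspa1a and Hspa1b in clusters 19 and 29, which held 1 to 18 UMIs of each.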
